A study of Mus musculus with 18 samples.

Results

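The genes described here are the Hox, Tbx, Meis and Pbx transcription factors, the genes that mark body position, in mouse fat precursor cells. They were taken as every gene symbol made of one of these family names and a number, and 49 of the 17267 symbols listed in either of the 2 deposited count tables met that rule. RefSeq holds 59 such mouse genes. The 49 are 33 of 39 Hox genes, 9 of 13 Tbx genes, 3 of 3 Meis genes and 4 of 4 Pbx genes. By cluster, 10 of 11 Hoxa, 9 of 10 Hoxb, 9 of 9 Hoxc and 5 of 9 Hoxd genes were listed.

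All 18 libraries came from primary preadipocytes of wildtype mice, in 6 groups of 3. The undifferentiated cells, in 12 libraries, came from epididymal white fat (eWAT). One group was mock-treated after a control diet of the mice (CD mock), and 2 others, also labelled control diet, were given TGF-b1 alone or TGF-b1 together with SB431542. The fourth was mock-treated after a high-fat diet (HFD mock). TGF-b1 is a growth factor that signals through receptor kinases and Smad proteins, and SB431542 blocks the type I receptor kinases of that pathway. The other 6 libraries came from preadipocytes sorted with an antibody to CD49e, the product of Itga5, into Itga5-High and Itga5-Low cells, which were then put through adipogenic differentiation. The sources used here do not give the fat depot or diet of the sorted cells, the doses and times, or the sex and age of the mice. Nor do they say whether the 3 replicates of a group are separate mice or cultures. The spread behind each p-value is thus that between libraries of a group, and it may be technical. A small p-value here need not mean that a difference would hold in other mice or cultures.

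Hox genes lie in 4 clusters, and their order along a cluster follows the order of the body regions in which they are active, from low numbers toward the head to high numbers toward the tail and the distal limb. Cultured fibroblasts and fat precursors keep a Hox pattern of the body site they came from, so the pattern serves as a record of position. Pbx and Meis proteins bind DNA together with Hox proteins. Tbx proteins are T-box factors that shape limb, heart, skin and mesothelium, and several differ between fat depots.

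Library totals ran from 11154449 to 16130948 counts in the undifferentiated table and from 12043443 to 17288608 in the differentiated table. Levels are CPM, counts scaled within each table by library totals adjusted with TMM, the scaling used in the tests. They are thus not shares of the plain totals, and they would differ under the total-count scaling set against them below. By this scaling 1 count was worth 0.0674 to 0.0887 CPM in the undifferentiated and 0.057 to 0.0842 CPM in the differentiated libraries. Itga5, the gene of the sorted antigen, was at 471.6 CPM ± 8.82 (SD, n = 3) in Itga5-High and 329.4 ± 4.68 in Itga5-Low cells, higher in all 3 libraries. The cells were labelled preadipocytes, and 10 of 10 preadipocyte and fibroblast markers were listed in both tables, at a summed level of 6006 to 16250 CPM in the undifferentiated and 24010 to 29480 CPM in the differentiated libraries. Col1a1 alone had 8930 CPM ± 58.15 of that sum in CD mock and 14770 ± 22.81 with TGF-b1 (SD, n = 3 each), a narrow spread between libraries. Of the 10 markers 8 were lower with TGF-b1 than in mock (median log2 fold change -2.13), 8 were higher with added SB431542 than with TGF-b1 alone (2.39) and 7 were lower in HFD than in CD mock (-0.65). Over all genes tested, 34.2% were called lower, 41.4% higher and 26.6% lower in these comparisons. The part of these markers in the results on the Hox and other genes was not tested. The undifferentiated libraries also held markers of other cells. Summed mesothelial markers reached 2589 to 2620 CPM in CD mock and macrophage markers 2392 to 2411 CPM in HFD mock. Adipocyte markers summed to 49.74 to 944.5 CPM in the undifferentiated and 4143 to 4496 CPM in the differentiated libraries. In such bulk samples, fewer cells of a type and less RNA per cell cannot be told apart.

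Hoxc8, Hoxc6 and Hoxa5 stood highest per transcript length in untreated epididymal precursors. Of the 45 members listed in the undifferentiated table, 39 had a mean of at least 1 CPM in CD mock and 24 a mean of at least 10 CPM. Per kilobase, Hoxc8 was at 35.1 CPM ± 3.0, Hoxc6 at 32.3 ± 1.9 and Hoxa5 at 26.5 ± 1.3 (SD, n = 3 each). The means of Hoxc8 and Hoxc6 differed by less than the SD of Hoxc8, and Hoxa5 lay below both. The leading members of the other families in CD mock were Meis1 at 15.4 CPM per kilobase, Hoxb2 at 14.8, Hoxd8 at 9.70 and Tbx18, a factor of mesothelium and heart, at 6.21. All 4 clusters were thus represented, with 42.2% of the summed Hox level per kilobase in Hoxc, 28.4% in Hoxa, 22.8% in Hoxb and 6.61% in Hoxd.

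At the low end, Hoxb13 had 0 to 2 counts in each of the 12 undifferentiated libraries and Tbx6 no more than 0.589 CPM. Hoxd10 had 3 to 10 counts in CD mock, 0 to 2 with TGF-b1, 8 to 11 with added SB431542 and 0 to 1 in HFD mock, and was too low to be tested. Hoxb13, Hoxd10 and Tbx20 were listed for undifferentiated cells only. Hoxa11, Hoxc11, Hoxc12 and Tbx5 were listed for differentiated cells only, where Tbx5, a forelimb and heart factor, reached 12.5 CPM ± 0.57 in Itga5-High cells. Hoxa13, Hoxb1, Hoxd1, Hoxd11, Hoxd12, Hoxd13, Tbx10, Tbx19, Tbx21 and Tbx22 were listed in neither table. The differentiated table listed no transcript summing to under 10 counts, so a gene missing from it is not listed rather than at 0.

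**Figure D1:**
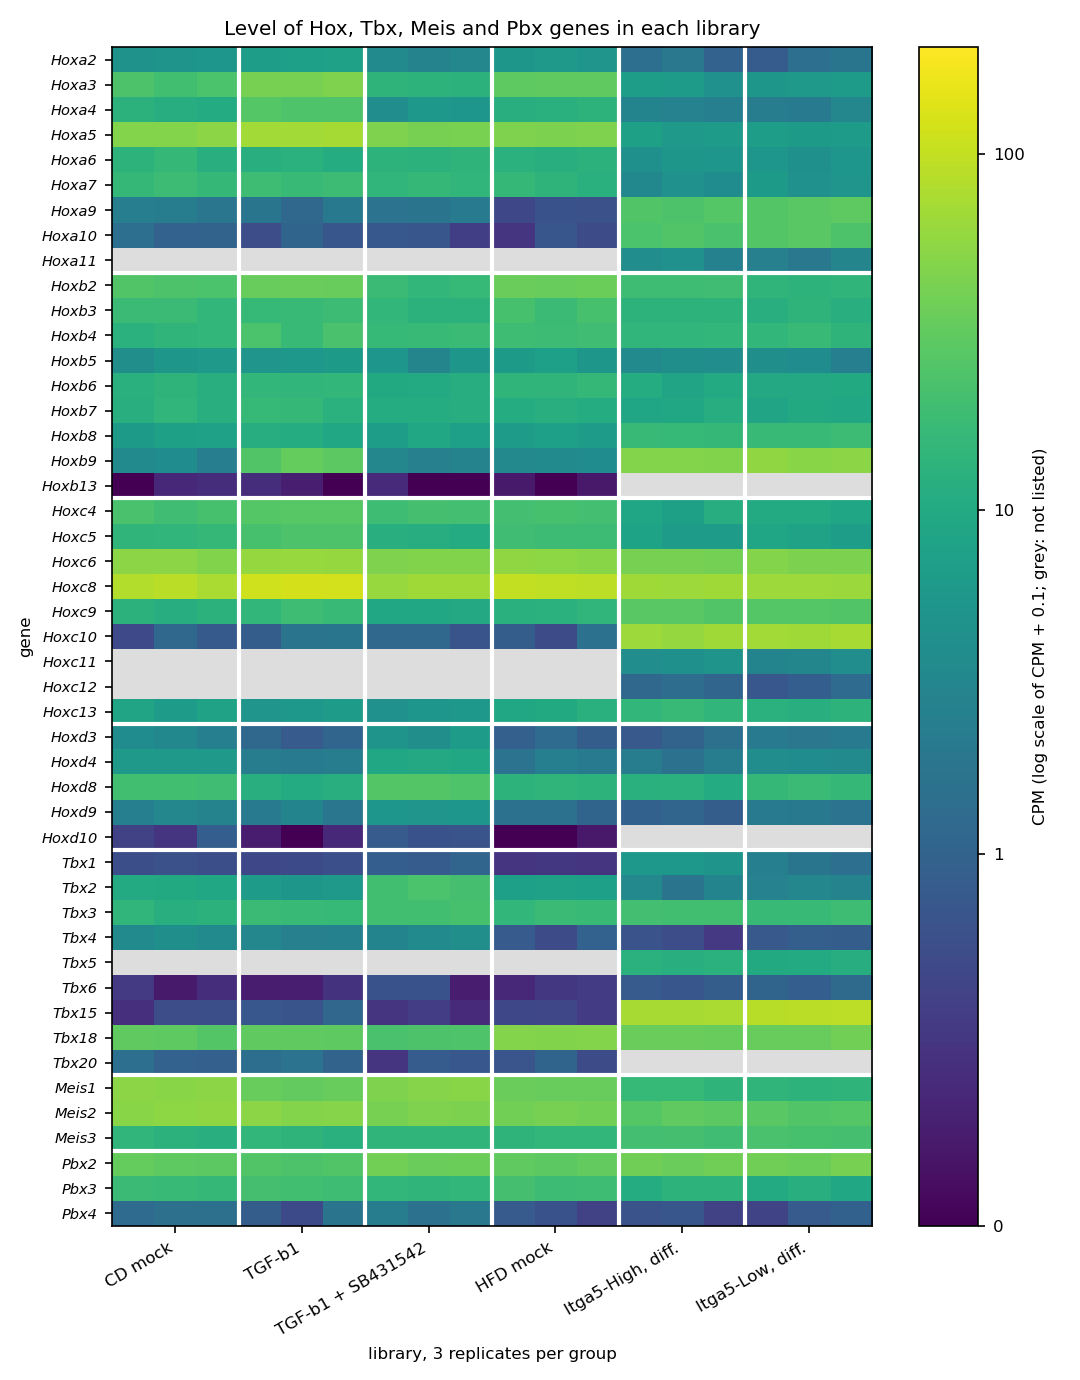
Level of 47 of the genes (rows, ordered by family and number) in each of the 18 libraries (columns, 3 per group), as CPM on a log scale of CPM + 0.1, with grey for genes not listed in a table. Hoxc8 is bright throughout, while Tbx15, Hoxc10, Hoxa10 and Hoxa9 are dark in the 12 undifferentiated libraries and bright in the 6 differentiated ones.

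With TGF-b1, 16 of the 24 Hoxa, Hoxb and Hoxc genes tested were higher, and 3 of 4 Hoxd genes and Meis1 were lower. Against CD mock, 18 of the 41 members tested were higher with TGF-b1, 11 were lower and 12 were not called, at an adjusted p under 0.05 (edgeR quasi-likelihood test, Benjamini-Hochberg over all genes). TGF-b1 moved much of the transcriptome: 67.6% of all 14078 genes tested were called, 33.4% higher and 34.2% lower. The members' share called is near that background, and their median log2 fold change was 0.14 against -0.02 for all genes. By cluster, 5 of 9 Hoxa, 5 of 8 Hoxb and 6 of 7 Hoxc genes tested were higher, and none of the 4 Hoxd genes was. With scaling by total counts instead, the median of all genes moved to -0.16, the calls over all genes split into 3068 higher and 6691 lower, and the members into 14 higher and 11 lower.

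Hoxb9, a gene of the thoracic region, changed most among the members. It was at 3.60, 3.89 and 2.48 CPM in the CD mock libraries and at 25.7, 32.9 and 29.3 CPM with TGF-b1. All 3 treated libraries lay above all 3 mock libraries, with a gap of more than 20 CPM between the groups. The log2 fold change was 3.12 ± 0.15 (SE, n = 3 libraries a group, edgeR adjusted p = 1.13e-25). Its neighbour Hoxb8 rose by only 0.57 ± 0.12 on the log2 scale, and Hoxb7 (0.18 ± 0.10, adjusted p = 0.105) was not called. Hoxb6 was higher by 0.25 ± 0.09, a call lost without mock replicate 3 (0.20) and with total-count scaling (0.10). Hoxb5, at 0.14 ± 0.16, was not called. Hoxb9 lies on chromosome 11 (mm10, 96271330 to 96276594, plus strand, as the deposited table gives it), and no other listed span overlaps it.

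The head-side genes Hoxa2, Hoxa3, Hoxa4 and Hoxa5, which act in hindbrain, neck and upper trunk, were all higher with TGF-b1. Hoxa4 was at 13.3, 11.4 and 10.8 CPM in mock and 26.5, 24.9 and 24.7 CPM with TGF-b1. Hoxa3 was at 23.6, 20.2 and 23.2 CPM in mock and 41.8, 41.4 and 45.2 CPM with TGF-b1. For both genes all treated libraries were above all mock libraries. The log2 fold changes along the cluster were 0.52 ± 0.14 for Hoxa2, 0.95 ± 0.07 for Hoxa3, 1.10 ± 0.09 for Hoxa4 and 0.50 ± 0.05 for Hoxa5, with adjusted p from 6.43e-18 to 0.00112. Further along, Hoxa6 was lower at -0.26 ± 0.10, a call lost without mock replicate 2 (-0.15) or without TGF-b1 replicate 3 (-0.20). Hoxa7 (0.09 ± 0.08), Hoxa9 (-0.38 ± 0.26) and Hoxa10 (-0.64 ± 0.40) were not called. The annotated span of Hoxa3 contains Hoxa4, Hoxa5 and Hoxa6 on the same strand, so counts of these 4 genes could have been split between them, and each is less certain than Hoxa2.

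Hoxc5 rose from 14.2, 14.9 and 15.5 CPM to 22, 24.1 and 23.7 CPM (log2 fold change 0.65 ± 0.08, adjusted p = 5.88e-10). Hoxb4 rose from 12.9, 14.2 and 15.1 CPM to 23.03, 16.7 and 22.4 CPM (0.57 ± 0.09), with TGF-b1 replicate 2 close to the mock range. Hoxc8, the most abundant member of its family, rose from 82.4, 90.8 and 76.5 CPM to 114.8, 121.1 and 118.5 CPM, and the groups did not overlap (0.50 ± 0.04). Hoxc4, Hoxc6 and Hoxc9 were higher by 0.24 to 0.43 on the log2 scale, and total-count scaling ended the call of Hoxc6 (0.09). Hoxc10 at 0.85 ± 0.39 (adjusted p = 0.0481) and Hoxc13 at -0.36 ± 0.14 (adjusted p = 0.0236) were called only narrowly. The Hoxc10 call was lost without mock replicate 1 or 3 or TGF-b1 replicate 2 or 3, with values from 0.58 to 0.80. That of Hoxc13 was lost without mock replicate 1 or 3 or TGF-b1 replicate 1 or 2, with values from -0.34 to -0.28.

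Of the 4 Hoxd genes tested, 3 were lower. Hoxd4 was at 5.8, 5.94 and 6.0 CPM in mock and 2.30, 2.13 and 2.36 CPM with TGF-b1. Hoxd8 was at 20.04, 19.7 and 19.2 CPM in mock and 12.02, 10.6 and 11.6 CPM with TGF-b1. In both, every treated library lay below every mock library. The log2 fold changes were -1.66 ± 0.29 for Hoxd3, -1.38 ± 0.18 for Hoxd4 and -0.78 ± 0.09 for Hoxd8, with adjusted p from 3.19e-11 to 1.13e-06. Hoxd9 (-0.33 ± 0.22, adjusted p = 0.184) was not called. The span of Hoxd3 contains Hoxd4 on the same strand, so their counts may not be independent.

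Among the partners of Hox proteins, Meis1 fell from 52.8, 52.1 and 52.7 CPM to 33.9, 32.2 and 34.5 CPM, a log2 fold change of -0.64 ± 0.05. The groups did not overlap. Pbx2 was also lower (-0.31 ± 0.07) and Pbx3 higher (0.23 ± 0.08), the latter call being lost without TGF-b1 replicate 1 (0.19) and with total-count scaling (0.08). Meis2 was lower by a small margin (-0.11 ± 0.05, adjusted p = 0.0428), which was lost without mock replicate 2 or 3 or TGF-b1 replicate 2 or 3 (-0.11 to -0.07). Meis3 and Pbx4 were not called.

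In the T-box family, Tbx2, a transcriptional repressor, fell from 10.3, 9.98 and 9.51 CPM to 6.65, 5.5 and 5.8 CPM (-0.73 ± 0.12, adjusted p = 9.45e-07). Its closest relative Tbx3 rose by 0.37 ± 0.09. Tbx18 did not pass the test, at 30.9, 30.3 and 26.0 CPM in mock and 30.9, 30.8 and 30.2 CPM with TGF-b1. The hindlimb and lung factor Tbx4 was lower at -0.44 ± 0.20 (adjusted p = 0.0499). That call was lost without any single mock replicate and without TGF-b1 replicate 2 or 3, with values from -0.48 to -0.35.

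**Figure D2:**
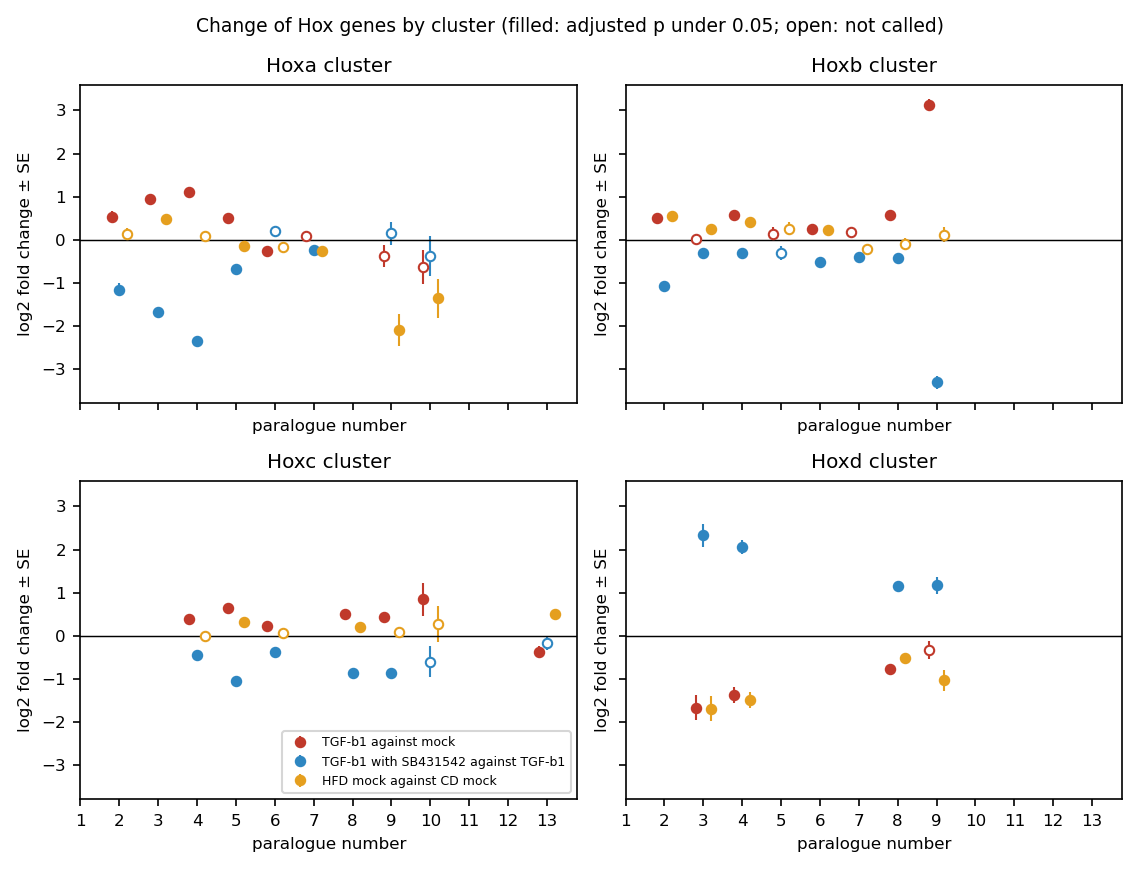
Log2 fold change ± SE (n = 3 libraries a group) of tested Hox genes, by paralogue number in each of the 4 clusters, for TGF-b1 against mock (red), TGF-b1 with SB431542 against TGF-b1 (blue) and HFD mock against CD mock (orange), with filled points for adjusted p under 0.05. Hoxa2 to Hoxa5 are above 0 in red and below 0 in blue, Hoxb9 stands at 3.12 and -3.30, and Hoxd3, Hoxd4 and Hoxd8 lie below 0 in red and orange and above 0 in blue.

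The upstream sequences of 5 genes are shown. Hoxa2 and Hoxa3 were higher and Hoxd3 and Hoxd4 lower with TGF-b1, and Hoxd9 is the Hoxd gene that was not called. RefSeq windows (GRCm38, the mm10 build) were found for 26 of the 49 members, in 28 windows. The 250 bases before the start site were searched on both strands for CAGAC (the SMAD half-site), TGATTNAT (a PBX-HOX site), TGACAG (a MEIS site) and AGGTGTGA (a T-box half-site), and no matches overlap in the windows shown. Capitals mark the matches, and each sequence runs 5′ to 3′ on the gene's own strand. The windows are chr6:52164832-52165081 (minus strand) for Hoxa2, chr6:52213068-52213317 (minus) for Hoxa3, chr2:74711743-74711992 (plus) for Hoxd3, chr2:74721728-74721977 (plus) for Hoxd4 and chr2:74697513-74697762 (plus) for Hoxd9.
Hoxa2: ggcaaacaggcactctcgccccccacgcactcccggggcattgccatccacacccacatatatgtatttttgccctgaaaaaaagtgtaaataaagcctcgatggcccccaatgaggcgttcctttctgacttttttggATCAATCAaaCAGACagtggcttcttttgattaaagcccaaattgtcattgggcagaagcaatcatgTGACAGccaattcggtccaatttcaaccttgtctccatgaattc
Hoxa3: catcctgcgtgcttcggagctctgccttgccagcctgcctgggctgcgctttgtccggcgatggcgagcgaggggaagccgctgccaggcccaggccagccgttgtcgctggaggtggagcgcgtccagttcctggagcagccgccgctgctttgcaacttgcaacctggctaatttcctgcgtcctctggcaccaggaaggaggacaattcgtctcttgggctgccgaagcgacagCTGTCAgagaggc
Hoxd3: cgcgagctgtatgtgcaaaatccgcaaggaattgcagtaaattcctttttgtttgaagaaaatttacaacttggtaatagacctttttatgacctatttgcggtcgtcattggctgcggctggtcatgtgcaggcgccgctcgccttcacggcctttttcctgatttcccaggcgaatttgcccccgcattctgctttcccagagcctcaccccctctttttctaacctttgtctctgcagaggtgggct
Hoxd4: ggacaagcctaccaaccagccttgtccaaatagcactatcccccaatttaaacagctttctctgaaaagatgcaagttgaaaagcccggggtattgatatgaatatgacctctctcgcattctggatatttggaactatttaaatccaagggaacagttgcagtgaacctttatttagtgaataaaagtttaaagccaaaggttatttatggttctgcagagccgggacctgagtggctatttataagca
Hoxd9: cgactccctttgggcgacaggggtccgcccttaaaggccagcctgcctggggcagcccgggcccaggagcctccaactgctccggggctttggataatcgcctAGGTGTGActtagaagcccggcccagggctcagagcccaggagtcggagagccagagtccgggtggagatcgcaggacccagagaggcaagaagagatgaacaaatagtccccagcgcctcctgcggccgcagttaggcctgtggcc

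In the window of Hoxa2, a PBX-HOX match and a CAGAC lie close together and a MEIS match lies nearer the start site, and the window of Hoxa3 holds 1 MEIS match. Those of Hoxd3 and Hoxd4 hold none of the 4 motifs, and that of Hoxd9 holds 1 T-box half-site. The window of Hoxa5, which was also higher with TGF-b1, likewise holds none of them. Over 32817 promoter windows of the same length, 42.2% held CAGAC, 2.83% the PBX-HOX site, 15.9% the MEIS site and 1.12% the T-box half-site. Of the 28 members' windows, 12, 2, 2 and 1 held them. These are matches of letters only.

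When SB431542 was added to TGF-b1, 18 of the 24 Hoxa, Hoxb and Hoxc genes tested were lower, and all 4 Hoxd genes tested and Tbx2 higher, than with TGF-b1 alone. Of the 41 members tested, 10 were higher, 23 lower and 8 not called, against a background of 79.7% of all genes called, 41.4% higher and 38.3% lower. The members' median log2 fold change was -0.31 and that of all genes 0.04. With total-count scaling the median of all genes moved to 0.30, the calls over all genes split into 8047 higher and 3446 lower, and the members into 14 higher and 14 lower. This comparison shares its TGF-b1 libraries with the one above, so opposite signs in both are not independent.

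Hoxb9 fell back to 3.32, 2.65 and 2.92 CPM, all far below the TGF-b1 libraries (-3.30 ± 0.15). Hoxa4 fell to 4.04, 5.59 and 5.30 CPM and Hoxa3 to 13.8, 13.4 and 13.2 CPM. Every library with SB431542 lay below every TGF-b1 library for all 3 genes. The same 4 head-side genes were each lower, by -1.15 ± 0.15 for Hoxa2, -1.67 ± 0.07 for Hoxa3, -2.35 ± 0.12 for Hoxa4 and -0.68 ± 0.05 for Hoxa5, and stayed called with total-count scaling. Hoxa6 (0.21 ± 0.10, adjusted p = 0.0509), Hoxa9 and Hoxa10 were not called. Hoxb2, a hindbrain gene, went from 34.3, 35.6 and 33.6 CPM to 17.4, 15.3 and 16.3 CPM (-1.07 ± 0.07). Hoxa2 went from 6.91, 7.09 and 7.69 CPM to 3.68, 2.87 and 3.23 CPM, again with no overlap. In all, 6 of 9 Hoxa, 7 of 8 Hoxb and 5 of 7 Hoxc genes tested were lower. With total-count scaling Hoxb3, Hoxb4, Hoxb7 and Hoxb8 lost their calls and Hoxa7 turned from -0.24 to 0.02.

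All 4 Hoxd genes tested were higher. Hoxd4 was at 9.30, 9.86 and 9.38 CPM and Hoxd8 at 25.7, 26.2 and 24.4 CPM, all above the TGF-b1 libraries. Hoxd3 was at 4.98, 4.12 and 6.61 CPM with SB431542 against 1.19, 0.80 and 1.08 CPM without it, and Hoxd9 at 5.34, 5.15 and 5.30 CPM against 2.22, 3.02 and 1.89 CPM. No library of one group reached the other's range. The log2 fold changes were 2.33 ± 0.27 for Hoxd3, 2.06 ± 0.17 for Hoxd4, 1.15 ± 0.08 for Hoxd8 and 1.17 ± 0.19 for Hoxd9, with adjusted p from 1e-17 to 5.25e-07.

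Tbx2 rose to 19.8, 23.2 and 20.9 CPM (1.83 ± 0.11, adjusted p = 1.13e-20), the only Tbx gene to pass 1.5 on the log2 scale in this comparison. Tbx3 rose by 0.27 ± 0.08, and Tbx18 fell by 0.37 on the log2 scale, a call that total-count scaling ended (-0.12). Tbx1 (0.93 ± 0.44) and Tbx20 (-1.24 ± 0.41) were called at means under 1.4 CPM. The call of Tbx1 was lost without TGF-b1 replicate 1 or 2 or SB431542 replicate 3 (0.80 to 0.88), and that of Tbx20 without SB431542 replicate 1 (-0.82). Pbx2, a broadly present Hox partner, went from 25.7, 23.9 and 24.9 CPM to 39.95, 35.0 and 36.7 CPM (0.58 ± 0.07), and Meis1 was higher by 0.55 ± 0.05. Meis2 was lower at -0.21 ± 0.05, but turned to 0.05 with total-count scaling. Pbx3 fell by 0.39 on the log2 scale and lost its call with that scaling (-0.14). Pbx4 was called higher at 0.87 ± 0.32, which was lost without TGF-b1 replicate 1 or 2 or SB431542 replicate 1 (0.54 to 0.76).

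Set against CD mock, cells given TGF-b1 with SB431542 had 8 members higher, 18 lower and 15 not called of 41, where 61.0% of all genes were called, 30.6% higher and 30.4% lower. The members' median was -0.17 and that of all genes 0.01. Total-count scaling moved the median of all genes to 0.12, the calls over all genes to 5962 higher and 2840 lower, and the members to 10 higher and 12 lower. Both groups also enter the comparisons above. Hoxa4, at 4.98 CPM ± 0.83 against 11.8 ± 1.29, was lower than in mock (-1.25 ± 0.13), as were Hoxa3 (-0.72 ± 0.08), Hoxa2 (-0.63 ± 0.16), Hoxb2 (-0.56 ± 0.08) and Hoxc13 (-0.53 ± 0.14). Tbx2 was above mock by 1.10 ± 0.09. Tbx3, at 14.8, 11.8 and 12.9 CPM in mock and 20.05, 19.7 and 21.6 CPM here, was above it by 0.64 ± 0.09, with no overlap. The Hoxd genes were above mock too, Hoxd9 by 0.84 ± 0.18, Hoxd4 by 0.68 ± 0.13, Hoxd3 by 0.67 ± 0.19 and Hoxd8 by 0.37 ± 0.07. Without SB431542 replicate 3, its highest library, Hoxd3 was at 0.47 and no longer called (adjusted p = 0.0552). Hoxb9 was not called (-0.18 ± 0.19, adjusted p = 0.453), nor was Meis1 (-0.09 ± 0.05).

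In high-fat diet cells the Hoxd genes, Hoxa9, Tbx4 and Meis1 were lower than in control-diet cells, and Tbx18 and Hoxb2 were higher. Of the 41 members tested, 11 were higher in HFD mock, 15 lower and 15 not called, against 53.7% of all genes called, 27.1% higher and 26.6% lower. The median was 0.01 for the members and -0.01 for all genes. Under total-count scaling the median of all genes was -0.09, the calls over all genes split into 2675 higher and 5268 lower, and the members into 8 higher and 17 lower. The CD mock libraries are shared with the TGF-b1 comparison.

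Hoxd4 was at 5.8, 5.94 and 6.0 CPM in CD mock and at 1.71, 2.53 and 2.12 CPM in HFD mock. Hoxd8 was at 20.04, 19.7 and 19.2 CPM in CD mock and 13.4, 14.3 and 13.6 CPM in HFD mock. The diet groups did not overlap for either gene. The log2 fold changes were -1.69 ± 0.28 for Hoxd3, -1.49 ± 0.18 for Hoxd4, -0.51 ± 0.08 for Hoxd8 and -1.03 ± 0.24 for Hoxd9. Against the same mock libraries, the TGF-b1 values of these 4 genes were -1.66, -1.38, -0.78 and -0.33.

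The tail-side genes of the Hoxa cluster were low in CD mock and lower in HFD mock. Hoxa9 had a mean of 2.23 CPM ± 0.30 in CD mock and 0.52 ± 0.08 in HFD mock (-2.08 ± 0.37, adjusted p = 5.45e-07), and Hoxa10 1.17 ± 0.28 and 0.45 ± 0.22 (-1.36 ± 0.45, adjusted p = 0.00501). Hoxa9 rested on 22 to 33 counts a library in CD mock and 6 to 8 in HFD mock. The Hoxa10 call was lost without HFD mock replicate 1 (-1.02). Hoxa3 rose by 0.48 ± 0.07, while Hoxa2, Hoxa4 and Hoxa6 were not called. Small decreases of Hoxa5 (-0.15 ± 0.05) and Hoxa7 (-0.26 ± 0.09) were called, the former lost without CD mock replicate 3 (-0.11) and the latter without CD mock replicate 2 or HFD mock replicate 3 (-0.18 for both).

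Tbx18, which marks mesothelium and mural cells, was at 30.9, 30.3 and 26.0 CPM in CD mock and at 49.2, 47.1 and 48.4 CPM in HFD mock. All HFD libraries were above all CD libraries (0.73 ± 0.06, adjusted p = 2.57e-15). In HFD mock all 10 mesothelial markers were lower. Of 8 pericyte and smooth muscle markers 2 were higher and 5 lower, where 53.7% of all genes were called. The part of these markers in the Tbx18 result was not tested. Hoxb2 went from 25.1, 23.99 and 23.4 CPM to 35.3, 34.1 and 36.4 CPM (0.55 ± 0.06) and Hoxc13 from 8.35, 6.58 and 7.80 CPM to 9.46, 10.1 and 12.3 CPM (0.51 ± 0.12), each with no overlap. Tbx4 was at 3.84 CPM ± 0.35 in CD mock and 0.75 ± 0.25 in HFD mock, the largest log2 fold change of a member in this comparison (-2.32 ± 0.29, adjusted p = 2.63e-10). Meis1 went from 52.8, 52.1 and 52.7 CPM to 35.3, 33.9 and 33.9 CPM (-0.61 ± 0.05), and Meis2 (-0.44 ± 0.05) and Tbx2 (-0.44 ± 0.11) were lower as well. Hoxb9, at 3.65 CPM ± 0.20 in HFD mock, was not called (0.12 ± 0.18). Tbx1 was called lower at means of 0.54 and 0.22 CPM, and that call was lost on leaving out any 1 of the 6 libraries (-1.30 to -1.19).

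Summed mesothelial, endothelial and adipocyte markers, like Hoxd3, Hoxd4 and Hoxd8, were lower with TGF-b1 and in HFD mock than in CD mock. The 10 mesothelial markers, all of them listed, summed to 2589 to 2620 CPM in CD mock and 731.8 to 750 CPM with TGF-b1. With added SB431542 they summed to 2337 to 2346 CPM, and in HFD mock to 673.5 to 686.8 CPM. In HFD mock 10 of 10 were lower than in CD mock, where 26.6% of all genes were called lower. With TGF-b1 9 of 10 were lower, where 34.2% of all genes were. None of these markers was at 0 throughout a group. With added SB431542 the sum was below that of CD mock and all 4 Hoxd genes were above it, but the markers were divided. Of the 10, 7 were lower than in CD mock, and Upk3b (0.30) and Gpm6a (0.34) were higher on the log2 scale. Over all genes, 30.4% were called lower and 30.6% higher there. Macrophage markers summed to 531 to 539.4 CPM in CD mock, 579.1 to 596.6 with TGF-b1, 1063 to 1085 with SB431542 and 2392 to 2411 in HFD mock, and endothelial markers to 411.4 to 430.1, 187.8 to 191.5, 868.2 to 892.3 and 128.8 to 138.7 CPM. Adipocyte markers summed to 188.1 to 193.3 CPM in CD mock and 49.74 to 50.23 CPM with TGF-b1. They summed to 940.3 to 944.5 CPM with SB431542 and 100.9 to 106.8 CPM in HFD mock. With added SB431542 the endothelial and adipocyte sums, unlike the mesothelial sum, were above those of CD mock. The part of these markers in the results on the Hoxd, Tbx and other genes was not tested.

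**Figure D3:**
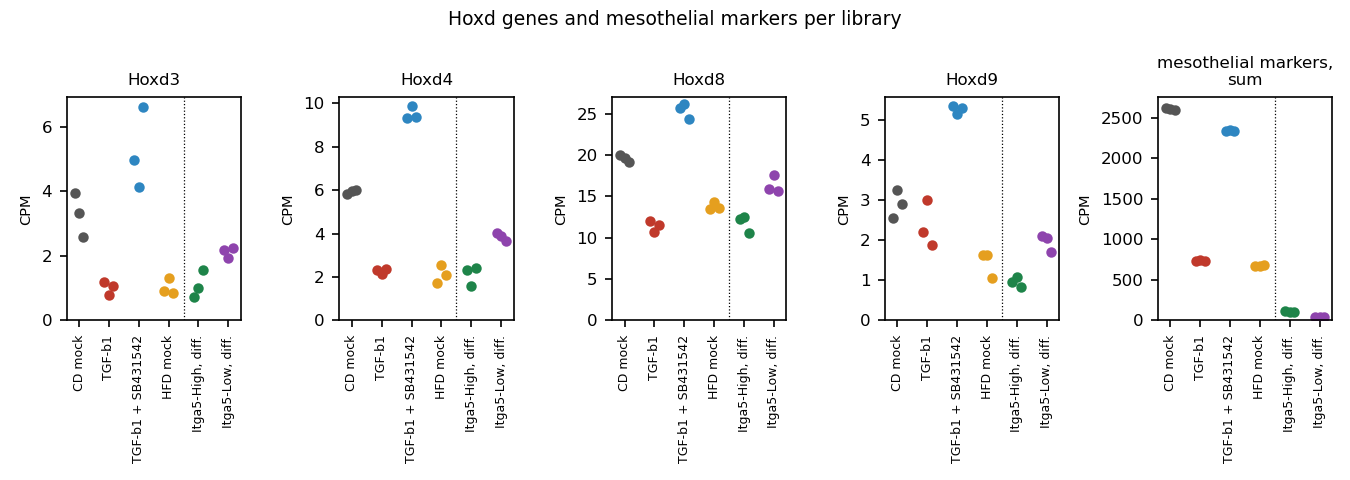
CPM of Hoxd3, Hoxd4, Hoxd8, Hoxd9 and the summed mesothelial markers (10 listed in undifferentiated and 7 in differentiated cells) in each library, with 3 points a group, linear axes from 0 and a dotted line between the separately scaled tables. SB431542 is highest in each Hoxd panel, TGF-b1 and HFD mock are below CD mock for Hoxd3, Hoxd4 and Hoxd8, the TGF-b1 points of Hoxd9 overlap those of CD mock, and the marker sum is at 673.5 to 750 CPM in TGF-b1 and HFD mock against at least 2337 in the other undifferentiated libraries.

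Among differentiated cells, the members called between Itga5-High and Itga5-Low cells with the largest log2 fold changes were Tbx1, Hoxd9, Hoxd3 and Hoxd4. Hoxd9 and Hoxd3 were low, at means of 0.96 and 1.10 CPM in Itga5-High and 1.95 and 2.12 CPM in Itga5-Low cells. In Itga5-High cells Hoxd9 rested on 10 to 16 and Hoxd3 on 12 to 19 counts a library. Of 46 members tested, 7 were higher in Itga5-High cells, 11 were lower and 28 were not called, while 53.5% of the 13468 genes tested were called, 27.0% higher and 26.5% lower. The share of members called was thus below the background, and their median was -0.03 against -0.00333 for all genes. With DESeq2, 11 members were called, 3 higher and 8 lower, where it called 41.2% of the 14281 genes to which it gave an adjusted p.

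Tbx1, a factor of the pharyngeal region, was at 5.64, 5.64 and 5.05 CPM in Itga5-High and 2.54, 1.82 and 1.52 CPM in Itga5-Low cells. Every Itga5-High library was above every Itga5-Low library (1.48 ± 0.19, adjusted p = 5.11e-08). All 4 Hoxd genes listed were lower in Itga5-High cells, by -0.98 ± 0.29 for Hoxd3, -0.85 ± 0.20 for Hoxd4, -0.47 ± 0.09 for Hoxd8 and -1.01 ± 0.29 for Hoxd9. Hoxd8 was at 12.3, 12.6 and 10.6 CPM in Itga5-High and 15.8, 17.6 and 15.7 CPM in Itga5-Low cells, with no overlap. The Hoxd3 call was lost without Itga5-High replicate 1 (-0.70, adjusted p = 0.0601). The 7 mesothelial markers listed here had a summed level of 108.3 to 112.7 CPM in the Itga5-High libraries, against 45.71 to 48.46 CPM in the Itga5-Low ones. Msln, Krt8 and Krt18 were not listed, and of the 3 markers tested Krt19 (1.31) and Krt7 (1.32) were higher in Itga5-High cells on the log2 scale and Wt1 was not called. The defining marker Upk3b had a mean of 0.39 CPM in Itga5-High and 0.68 CPM in Itga5-Low cells. The part of these markers in the result was not tested.

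Tbx15, the most abundant T-box gene of these cells, was at 74.0, 73.5 and 75.3 CPM in Itga5-High and 89.0, 92.2 and 93.5 CPM in Itga5-Low cells, which did not overlap (-0.30 ± 0.04, adjusted p = 3.48e-09). Hoxb9 was lower in Itga5-High cells by -0.15 ± 0.05 and Hoxc10 by -0.12 ± 0.04, the latter call being lost without Itga5-High replicate 2 (-0.08) or Itga5-Low replicate 3 (-0.09). Hoxb2 (0.42 ± 0.08), Hoxc13 (0.30 ± 0.09) and Tbx3 (0.22 ± 0.07) were higher, the last not called by DESeq2. Hoxa11 (0.57 ± 0.20), Tbx5 (0.25 ± 0.09) and Pbx3 (0.26 ± 0.10) were called higher and Hoxa7 (-0.42 ± 0.16), Hoxa9 (-0.16 ± 0.06) and Hoxc6 (-0.14 ± 0.05) lower, but each of these 6 lost its call without 1 or more single libraries. For Hoxa11 these were Itga5-High replicates 1 and 2 and Itga5-Low replicate 2 (0.41 to 0.51), for Tbx5 Itga5-High replicates 1 and 3 and Itga5-Low replicates 1 and 2 (0.22 to 0.23), and for Pbx3 Itga5-High replicates 2 and 3 and Itga5-Low replicates 1 and 3 (0.18 to 0.24). For Hoxa7 they were Itga5-High replicates 1 and 3 and Itga5-Low replicates 1 and 3 (-0.43 to -0.29), for Hoxa9 Itga5-High replicates 1 and 2 and Itga5-Low replicates 2 and 3 (-0.15 to -0.11), and for Hoxc6 Itga5-Low replicate 1 (-0.10). Hoxa2 to Hoxa6 and all 3 Meis genes were not called.

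The Hox pattern of the sorted, differentiated cells was shifted toward high paralogue numbers relative to the epididymal precursors. These levels come from 2 separately scaled tables and are set side by side with no test. Genes of paralogue groups 9 to 13 held 6.34% to 8.66% of the summed Hox level per kilobase in the 4 undifferentiated groups, and 44.1% ± 0.34 in Itga5-High and 44.5% ± 0.76 in Itga5-Low cells (SD, n = 3). Groups 1 to 4 held 24.8% to 30.4% and then 14.8% and 13.5%. The summed Hox level itself was alike, at 193.6 to 298.7 CPM per kilobase in the undifferentiated groups and 227.3 and 233.8 CPM per kilobase in the differentiated groups.

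Of 39 members that reached 5 CPM in a group and were listed in both tables, 4 were at least 4-fold higher in both differentiated groups than in all 4 undifferentiated groups, where 1.19% of 11944 genes were, and 1 was at least 4-fold lower, where 2.41% were. The same genes met these limits with total-count scaling.

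Tbx15, which patterns skin and limb skeleton and differs between fat depots, was at 0.154 to 1.15 CPM over the 12 undifferentiated libraries and 73.5 to 93.5 CPM over the 6 differentiated ones. Its nearest group means were 90.9-fold apart, and it rested on 2 to 17 counts a library on the low side. Hoxc10, a lumbar and hindlimb gene, was at 0.439 to 1.82 CPM in undifferentiated libraries and at 65.3, 60.4 and 66.9 CPM in Itga5-High and 69.2, 67.8 and 73.2 CPM in Itga5-Low cells, with nearest means 43.3-fold apart. Those of Hoxa10 were 20.1-fold apart and those of Hoxa9 11.3-fold. Hoxa10 was at 23.1, 24.9 and 22.7 CPM in Itga5-High and 25.9, 28.7 and 23.7 CPM in Itga5-Low cells, and Hoxa9 at 25.1, 24.1 and 26.6 CPM and 26.1, 28.5 and 29.99 CPM. In each of these 4 genes, every differentiated library lay above every undifferentiated one.

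Hoxa5, a gene of the cervical and thoracic region, ran the other way, from 42.1 to 70.7 CPM over the undifferentiated libraries down to 5.98 to 7.41 CPM over the differentiated ones, with nearest means 6.67-fold apart. Hoxb9, at 48.3 and 53.8 CPM in the differentiated groups, lay 1.65-fold above the TGF-b1 group and far above the other 3 undifferentiated groups at 2.96 to 3.65 CPM. Hoxb4, Tbx3, Tbx18 and Hoxd8 had differentiated levels within the range of the undifferentiated groups. Meis3 led its family in differentiated cells at 11.7 and 12.5 CPM per kilobase, whereas Meis1 led in 3 undifferentiated groups and Meis2 in the TGF-b1 group.

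**Figure D4:**
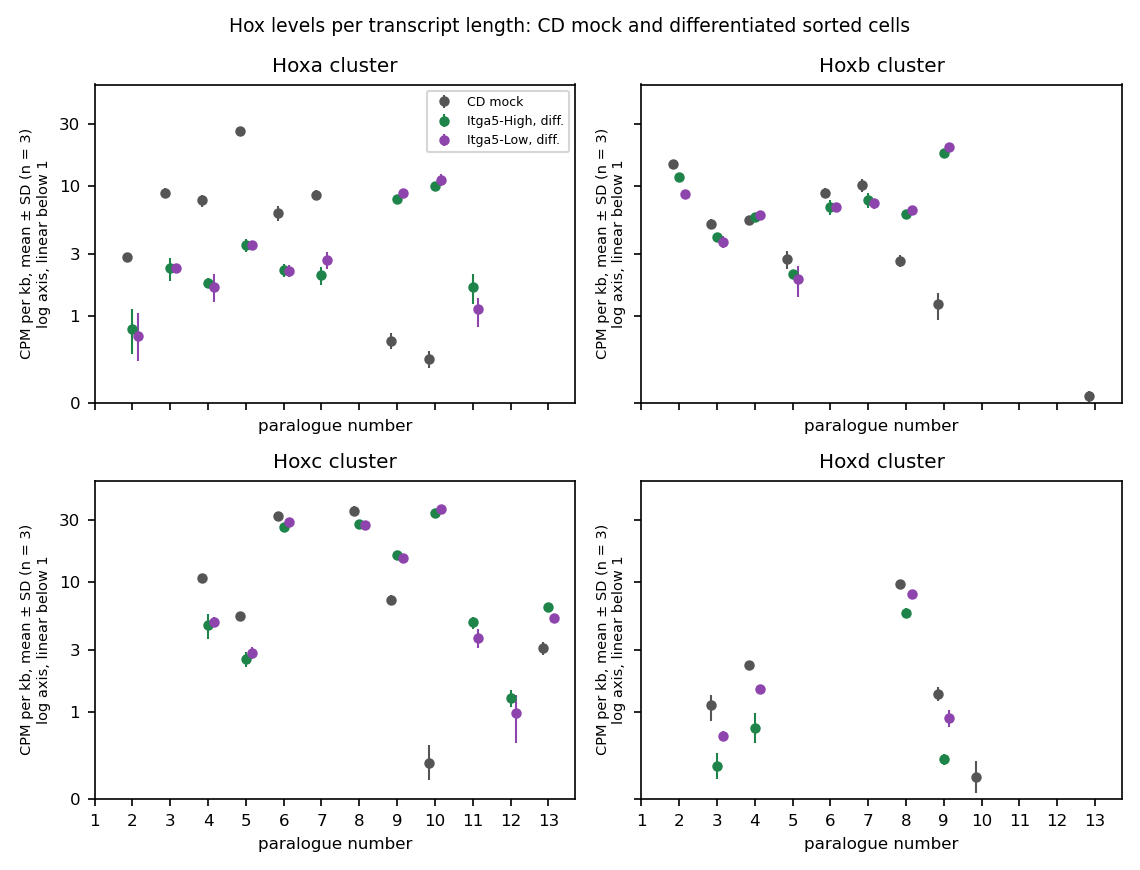
Mean level ± SD (n = 3) of listed Hox genes, as CPM per kilobase of transcript on a log axis that is linear below 1, by paralogue number for CD mock (grey), Itga5-High (green) and Itga5-Low (purple) cells. Hoxa9, Hoxa10, Hoxb9 and Hoxc10 are under 1.5 in CD mock and at 7.92 to 36.6 in the differentiated groups, and the Hoxa2 to Hoxa7 points of the differentiated groups lie below those of CD mock.

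Other regional transcription factors differed in the same side-by-side comparison. Shox2, a proximal limb factor, was at 0.256 to 1.99 CPM in undifferentiated and 49.1 to 63.9 CPM in differentiated libraries, and the TALE homeobox gene Irx1 had group means of 1.34 to 5.62 CPM and then 103.7 and 81.2 CPM. Wt1, a factor of visceral mesothelium and visceral fat precursors, was at 69.4 to 181.7 CPM in undifferentiated and 1.49 to 2.55 CPM in differentiated libraries. Tcf21 and Gata4, also of visceral mesoderm, were listed for undifferentiated cells only, and Pitx1, a hindlimb factor, and Lhx8 for differentiated cells only. Sorting, differentiation, depot of origin and the table itself cannot be told apart in these differences.

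**Figure D5:**
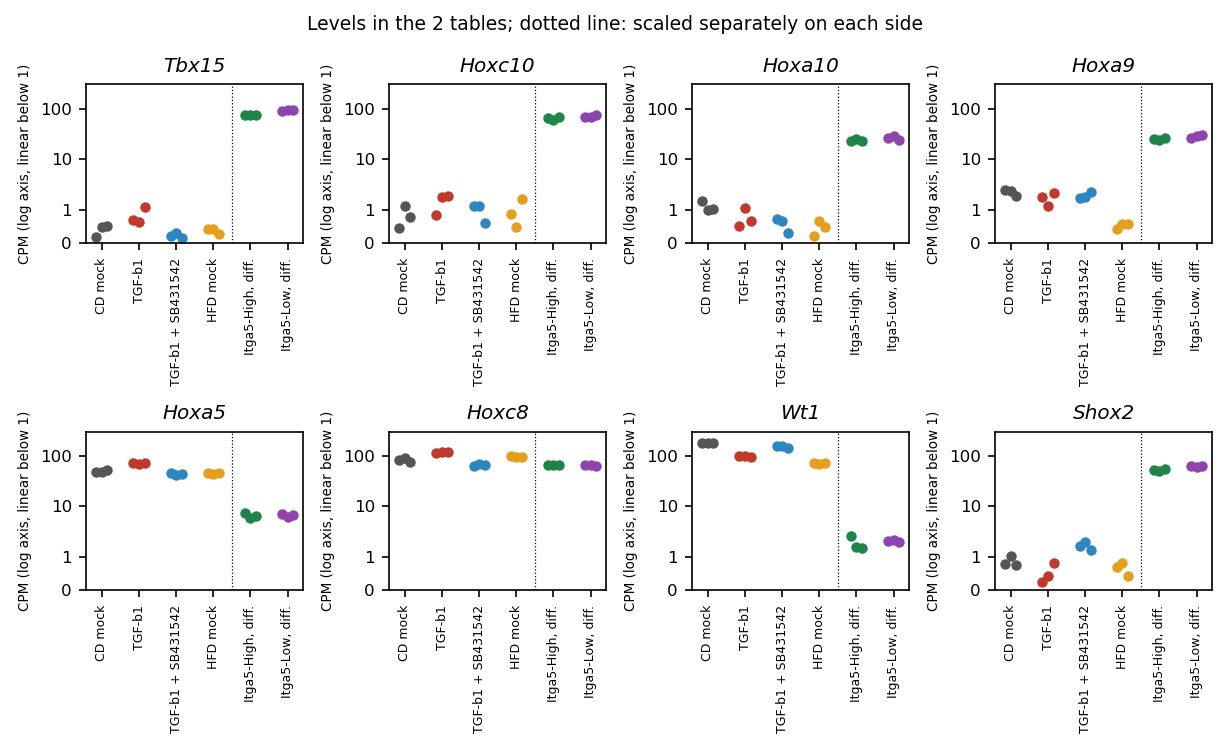
CPM in each library (3 points a group, log axis that is linear below 1) of Tbx15, Hoxc10, Hoxa10, Hoxa9, Hoxa5 and Hoxc8 and of the regional factors Wt1 and Shox2, with a dotted line between the separately scaled tables. Tbx15 and Hoxc10 are under 2 CPM to the left of the line and at 60.4 to 93.5 CPM to the right, Hoxa5 and Wt1 fall across it, and Hoxc8 stays between 62.7 and 121.1 CPM.

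Polycomb and trithorax proteins keep Hox clusters silent or active, and 26 of 26 listed genes of these complexes were tested. With TGF-b1 5 were higher and 13 lower, with added SB431542 14 were higher and 8 lower than with TGF-b1 alone, in HFD mock 6 were higher and 6 lower, and in Itga5-High cells 4 were higher and 10 lower. Over all genes, 67.6%, 79.7%, 53.7% and 53.5% were called in these comparisons, and the shares of this list lie near them. Its median log2 fold changes were -0.14, 0.28, 0.00401 and -0.07. Cbx2, a reader of the Polycomb mark, had a mean of 8.80 CPM ± 0.68 in CD mock and 4.17 ± 0.16 with TGF-b1 (log2 fold change -1.09 ± 0.15). With added SB431542 it was at 13.3 ± 1.6 (1.68 ± 0.14 against TGF-b1). Jarid2, another Polycomb cofactor, was at 22.2, 12.97 and 29.1 CPM in those groups (-0.76 ± 0.09 and 1.16 ± 0.08). Ezh2, the methyltransferase that writes the mark, was higher in Itga5-High cells (0.56 ± 0.08), and Ezh1 was lower (-0.36 ± 0.07).

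The other TALE homeobox genes listed, besides Meis and Pbx, divided between directions. Of 8 tested in undifferentiated cells, 3 were higher and 3 lower with TGF-b1, 2 higher and 3 lower when SB431542 was added to it, and 4 higher and 2 lower in HFD mock, against 67.6%, 79.7% and 53.7% of all genes called. Pknox2, a relative of Meis, was higher with TGF-b1 (0.56 ± 0.05) and its paralogue Pknox1 lower (-0.58 ± 0.07). In Itga5-High cells 6 of 9 were higher and none lower, Irx3 (0.48 ± 0.08) and Irx5 (0.38 ± 0.08) among them. Over all genes tested there, 27.0% were called higher and 26.5% lower. The largest changes among the other regional factors in undifferentiated cells were those of Meox2, at -2.01 ± 0.20 with TGF-b1 and 3.76 ± 0.19 with added SB431542, and Foxc2, at 1.89 ± 0.08 and -3.02 ± 0.11. Of the noncoding RNAs of the Hox clusters, 6 passed the filter in each table. Mira, a noncoding RNA of the Hoxa cluster, was lower in HFD mock (-0.55 ± 0.11).

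The share of a gene's count held by each transcript was uneven between replicates of undifferentiated cells for some members and more even for others. Over the CD mock libraries the most counted transcript held 15.1% to 70.3% of the count of Hoxb3 and 14.6% to 18.1% of that of Meis2. Hoxa9, with 22 to 33 counts a library in CD mock, was among the uneven ones. The most counted of 2 Hoxa9 transcripts held 6.31% to 84.4% of the gene's count over the CD mock libraries and 68.7% to 94.2% with TGF-b1 and SB431542. In differentiated cells, where Hoxa9 was abundant, its share was 75.7% to 84.0% over the Itga5-High libraries and 76.7% to 83.7% over the Itga5-Low libraries. Of 4 Tbx1 transcripts the most counted held 65.4% to 79.5% over the Itga5-High libraries, against 39.4% to 52.4% over the Itga5-Low libraries. For the 2 transcripts of Tbx3 these shares were 28.2% to 44.3%, against 64.6% to 72.5%, and for those of Pbx3 37.0% to 57.8%, against 62.0% to 64.0%. Between Itga5-High and Itga5-Low cells the ranges of Tbx1, Tbx3 and Pbx3 did not overlap, while those of the other members with several transcripts did. In undifferentiated cells some ranges separated too, those of Hoxd8 among them. Its most counted transcript held 35.4% to 47.4% over the TGF-b1 libraries, below the CD mock range of 50.2% to 67.0%. The HFD mock range, 68.0% to 80.9%, lay above that of CD mock. With added SB431542 the range, 46.5% to 57.8%, overlapped those of CD mock and TGF-b1. Tbx1 rested on 25 to 41 counts a library in Itga5-Low cells. Differences in these shares were not tested, and how often such ranges separate over all genes was not counted.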

How the data were processed

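Poly(A) RNA of 18 primary preadipocyte libraries was sequenced. The authors deposited 2 tables of estimated counts per transcript, 1 of undifferentiated and 1 of differentiated cells, made with fastp, STAR and featureCounts on mm10 per the submitters' processing notes. Neither tool versions nor the strand setting were found in the labels. Counts were summed per gene symbol and rounded. Genes were tested within each table with edgeR 4.0.16 (R 4.3.3), using filterByExpr, TMM scaling and the quasi-likelihood F-test with Benjamini-Hochberg adjustment over all genes tested and a threshold of 0.05. The design had the groups only, and the undifferentiated groups shared 1 fit. The test was checked on simulated data. Alternatives were total-count scaling, DESeq2 1.42.0, no filter, each library left out, a replicate block, the compared groups only and, added after seeing the data, total-count scaling of the side-by-side levels. The tables were scaled separately and were not tested against each other. SEs are those of the fitted log2 fold changes, with the dispersion held at 0.0001 or above. Members, lists and comparisons were chosen with earlier results of these data known. Values in every library are given for members called with at least 5 CPM in a group and an absolute log2 fold change of at least 0.5, at most 6 per direction, and for the leading member of a family. Genes of the other lists were named at 5 CPM or more, at most 4 per list and comparison by size of change among those called; other members with values, Upk3b, Gpm6a and the genes set side by side were chosen for description after their values were seen. The values of 2 members are not reported here, though counts over the members include them, apart from the count of calls kept under the alternatives. Positions are those of the deposited tables, whose end can lie 1 base beyond RefSeq's. Counting error limits precision at low counts, and PCR duplicates cannot be told from separate molecules.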

Additional observations from a re-analysis of the deposited data

How the results depend on the processing

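Of 124 calls of members over the 5 comparisons, 81 kept their direction and stayed past the threshold under every alternative, and 43 lost the call or turned sign under at least 1. Total-count scaling, which shifts all genes, lowered the members called lower with added SB431542 against TGF-b1 alone from 23 to 14, and turned Hoxa7 to 0.01507 and Meis2 to 0.05181 there. DESeq2 called 11 members between Itga5-High and Itga5-Low cells, 3 of them higher, where it called 41.2% of all genes against 53.5% in the main test; the cause was not tested. Leaving out 1 library at a time gave 24 to 28 members called for TGF-b1 against mock (16 to 19 higher, 8 to 11 lower), 31 to 34 for added SB431542 against TGF-b1 (9 to 11 and 22 to 24), 22 to 27 for added SB431542 against mock (6 to 8 and 14 to 19), 23 to 26 for HFD against CD mock (9 to 11 and 14 to 15) and 14 to 16 for Itga5-High against Itga5-Low (5 to 7 and 8 to 10). Deviations from the group means of libraries with the same replicate number had correlations of -0.0549 to 0.0226. They were taken from means of 3 libraries and over all genes kept, where counting error weighs. This check thus cannot tell whether the numbers pair the libraries. With a replicate block the members called were 28, 33, 25, 25 and 19 in the same order. Replicate 3 correlated best with its own number for added SB431542 against TGF-b1, and no other pair did. Members under about 2 CPM rest on few counts, and Hoxb13, Hoxd10, Tbx6 and Tbx15 could not be tested in undifferentiated cells.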
